A study of Homo sapiens with 6 samples.

Results

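miR-9 is a microRNA whose hairpin yields a mature product from each side, miR-9-5p and miR-9-3p (hsa-miR-9-5p and hsa-miR-9-3p in the count table). Both products were followed here in azacitidine-resistant and azacitidine-sensitive K562 cells. They are 2 of the 2656 mature miRNAs in the deposited count table and were taken from it by name. miR-9 was picked with its counts in these libraries already known, so its levels and its arm ratio are given as descriptions, with no p-value. Where a fit over all miRNAs called an arm, that is stated beside the share called over all miRNAs and nothing is read from it.

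K562 is an erythroleukaemia cell line, labelled in this series as myeloblast. The resistant form came from the sensitive one by growth for months in rising amounts of azacitidine, a cytidine analogue that traps DNA methyltransferases and so lowers DNA methylation. Small RNA was sequenced from 3 resistant and 3 sensitive libraries, called biological replicates in the labels, and both forms were grown in the same serum-containing medium. Every library name carries the tag NT, which the labels do not explain. The labels name no separate selections of resistant cells and do not say whether the drug was present at harvest. Any p-value for another miRNA therefore measures the spread between these libraries, and selection, drift in culture and a direct drug effect cannot be told apart.

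miRNAs load into Argonaute proteins and pair with target transcripts mainly through the seed, bases 2 to 8 of the mature strand. miR-9 is best known from the developing nervous system, where both of its arms are active: miR-9-5p represses the neuronal silencer REST and miR-9-3p represses its cofactor CoREST. Outside that tissue, miR-9 is known for high levels in leukaemias with MLL rearrangements, for repression of E-cadherin in breast cancer cells, and for methylation of its CpG-island promoters in several cancers.

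The mature sequences are shown because their seeds set the targets of each arm, with the seed in capitals (RefSeq, GRCh38.p14, where both names matched).
miR-9-5p: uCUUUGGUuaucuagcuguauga
miR-9-3p: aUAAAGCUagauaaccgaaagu
The arms have different seeds, and 0 of the other miRNAs among the 2370 mature names in the RefSeq table carry either of them. The closest other mature miRNA differs from miR-9-5p by 8 single-base edits and from miR-9-3p by 7, so RefSeq lists no near-identical miRNA with which their reads could be confused.

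Human cells have 3 miR-9 hairpins, which are shown because they explain what the counts can and cannot separate (both mature arms in capitals, the 5p arm first).
MIR9-1: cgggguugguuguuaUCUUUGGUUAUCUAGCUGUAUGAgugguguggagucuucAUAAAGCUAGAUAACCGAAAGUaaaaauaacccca
MIR9-2: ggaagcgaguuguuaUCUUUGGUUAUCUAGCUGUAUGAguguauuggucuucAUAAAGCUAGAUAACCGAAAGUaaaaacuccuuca
MIR9-3: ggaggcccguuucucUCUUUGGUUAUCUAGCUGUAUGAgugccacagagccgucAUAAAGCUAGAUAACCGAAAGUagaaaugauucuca
MIR9-1 lies at chr1:156420341-156420429 on the minus strand, inside introns of C1orf61 in the GENCODE 29 annotation of GRCh38. MIR9-2 lies at chr5:88666853-88666939 on the minus strand within LINC00461, a long non-coding RNA gene. It is wholly exonic in 4 of the 10 LINC00461 transcripts that span it, partly exonic in 1 and intronic in the others. MIR9-3 lies at chr15:89368017-89368106 on the plus strand, in introns of the long non-coding RNA gene MIR9-3HG. The hairpins differ in their flanks and in the 14 to 16 bases between the arms, whereas each arm has 1 sequence in all 3. Counts of mature miRNAs therefore sum the 3 loci, and the locus behind any difference cannot be told apart.

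Library totals were 3291500 to 10644739 counts in resistant and 5660055 to 12563945 counts in sensitive cells. Resistant replicate 3 was the smallest library and stood apart from the others. Across miRNAs, its log2 CPM had a Pearson r of 0.882 with resistant replicate 1 and 0.871 with resistant replicate 2, against 0.996 between these and 0.980 to 0.993 among the sensitive libraries. Annotations that resemble fragments of other RNAs held 4.99% of its counts, against 1.01% to 1.04% in resistant replicates 1 and 2 and 1.08% to 1.70% in the sensitive libraries. Values are therefore given with and without it.

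miR-9-5p was lower in every resistant library than in every sensitive one. It had 10934, 12786 and 568 counts in resistant replicates 1 to 3, against 60745, 67510 and 14182 counts in sensitive replicates 1 to 3. CPM relates a count to the size of its library, here scaled by trimmed mean of M values (TMM) factors. In this unit miR-9-5p had 1113, 965 and 223.1 CPM in resistant cells, against 5056, 6895 and 2624 CPM in sensitive cells. Replicate 3 was the lowest of its group in both forms, and the resistant library with the highest level lay 2.36-fold below the lowest sensitive library. Counts are shares of a library, so fewer cells that make miR-9 and less miR-9 per cell cannot be told apart.

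Among the miRNAs of a library, miR-9-5p ranked 80, 86 and 164 by counts in resistant replicates 1 to 3, against 31, 25 and 53 in sensitive replicates 1 to 3. It held 0.132%, 0.120% and 0.0173% of the counts of resistant replicates 1 to 3 (exact 95% binomial intervals 0.129% to 0.134%, 0.118% to 0.122% and 0.0159% to 0.0187%). In sensitive replicates 1 to 3 it held 0.483%, 0.662% and 0.251% (0.480% to 0.487%, 0.657% to 0.667% and 0.246% to 0.255%). The intervals cover counting error only, since reads without molecular identifiers are not independent molecules. The intervals of the 6 libraries did not overlap each other.

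miR-9-3p, the less abundant arm, showed the same order of libraries except between resistant replicates 1 and 2. It had 2003, 2949 and 164 counts in resistant replicates 1 to 3, against 12776, 13612 and 3290 counts in sensitive replicates 1 to 3. These were 204, 222.5 and 64.4 CPM in resistant cells, against 1063, 1390.3 and 609 CPM in sensitive cells. The groups did not overlap, with the highest resistant library 2.74-fold below the lowest sensitive one.

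**Figure D1:**
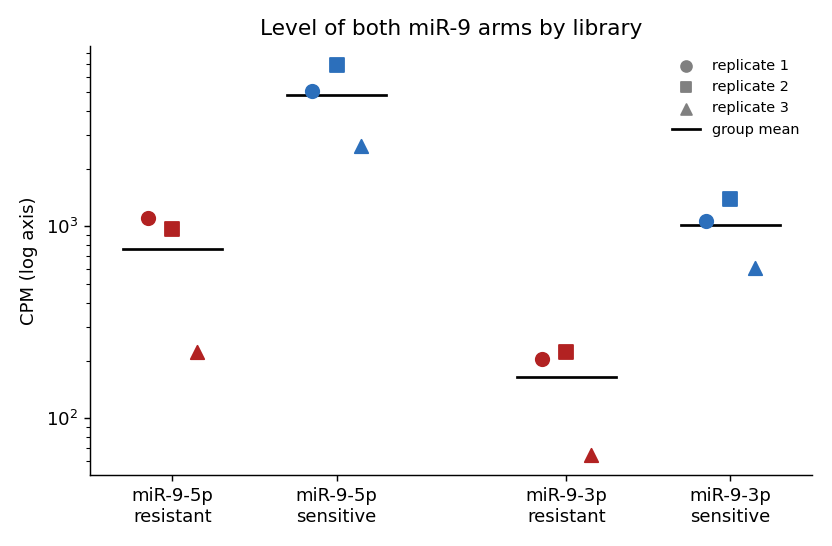
CPM of miR-9-5p and miR-9-3p (log axis) in each of the 3 resistant and 3 sensitive libraries, with marker shapes for replicates and a line at the group mean. Each resistant library lies below each sensitive library for both arms, and replicate 3 is the lowest of its group in each case.

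On average, miR-9-5p stood at 767 ± 477 CPM in resistant and 4858 ± 2142 CPM in sensitive cells (SD, n = 3 each), a log2 fold change of -2.66 (approximate SE 0.68) or 6.33-fold lower. miR-9-3p stood at 164 ± 86.4 CPM in resistant and 1021 ± 392.5 CPM in sensitive cells (SD, n = 3 each), a log2 fold change of -2.64 (approximate SE 0.59) or 6.23-fold lower. Without resistant replicate 3 the differences were smaller, at 4.50-fold for miR-9-5p (log2 fold change -2.17, SE 0.34) and 4.60-fold for miR-9-3p (log2 fold change -2.20, SE 0.32). The spread came down with the difference, and the arms stayed alike.

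Some miRNAs were lower still. Ordered from the lowest log2 fold change, the arms ranked 15 (5p) and 16 (3p) among the 768 miRNAs with enough counts to be fitted. Among the 245 of these with a mean of at least 100 CPM, they ranked 3 and 4. The median log2 fold change of all fitted miRNAs was -0.11 with TMM factors, -0.01 with relative log expression (RLE) factors and 0.09 with library totals alone. In that order of scalings, the log2 fold change was -2.66, -2.62 and -2.38 for miR-9-5p and -2.64, -2.59 and -2.37 for miR-9-3p. Relative to the median of each, miR-9-5p stood at -2.55, -2.62 and -2.46 and miR-9-3p at -2.53, -2.58 and -2.45. A change of scaling moves all miRNAs nearly alike, so values relative to the median were bound to be similar.

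The non-overlap of the groups has to be read against how common it was. CPM did not overlap between the forms for 41.8% of the 768 miRNAs, and 22.9% were lower in every resistant library, as both arms were. With edgeR's quasi-likelihood test and a Benjamini-Hochberg adjusted p threshold of 0.05, 32 of 768 miRNAs (4.17%) passed, 16 higher and 16 lower in resistant cells (2.08% each), and the miR-9 arms were not among them. With library totals alone the split was 27 higher and 16 lower. Without resistant replicate 3, 231 of 822 miRNAs (28.1%) passed, 13.7% higher and 14.4% lower, and both arms were among the 118 that were lower. Both were also among the 149 of 768 miRNAs called with DESeq2, a larger share than with edgeR. miR-9-3p was among the 40 of 768 called with limma-voom. No support is drawn from these calls, because miR-9 was selected on this comparison.

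Resistant replicate 3 was the library with the least miR-9, and both arms are poor in G and C. The GC content was 34.8% for miR-9-5p and 31.8% for miR-9-3p, against a median of 47.8% over the fitted miRNAs with a RefSeq sequence (677 of 768). Across those 677, the distance of resistant replicate 3 from the mean of the other resistant libraries went along with GC content (Spearman's rho 0.714, with all points from the same 3 libraries). The arms deviated by -2.21 (5p) and -1.72 (3p) in log2 CPM, against a median of -0.31, and 108 of the 768 miRNAs deviated further down than miR-9-5p. With a correction for GC content within each library, the log2 fold changes were -1.98 (SE 0.35) for miR-9-5p and -1.71 (SE 0.34) for miR-9-3p. When resistant replicate 3 was also left out, they were -1.89 (SE 0.29) and -1.91 (SE 0.26). Both arms were lower in resistant cells in each of these fits. For miR-9-3p the GC correction with all 6 libraries moved the log2 fold change, from -2.64, by more than the spread between replicates. The part of GC content in the difference was not tested.

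**Figure D2:**
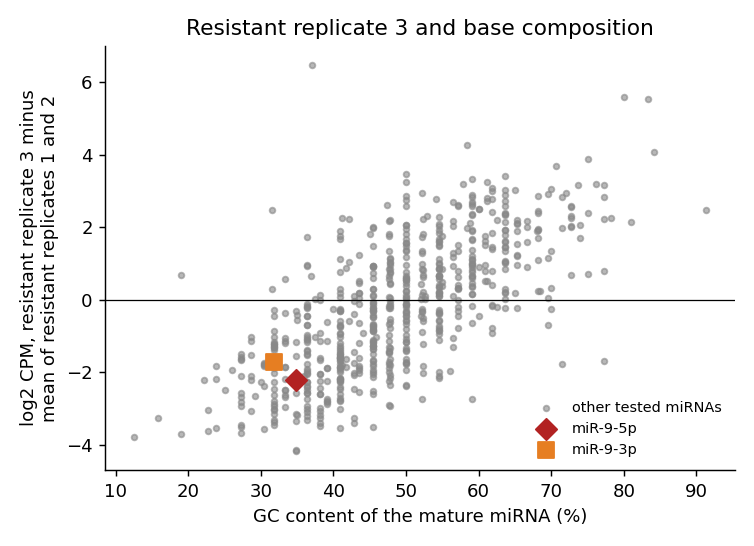
GC content of each mature miRNA (percent) against the log2 CPM of resistant replicate 3 minus the mean log2 CPM of resistant replicates 1 and 2, for 677 miRNAs. The miR-9 arms lie at the low-GC end, at -2.21 (5p) and -1.72 (3p), inside the cloud of other low-GC miRNAs.

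The balance between the arms was nearly the same in both forms. miR-9-5p made up 84.5%, 81.3% and 77.6% of all miR-9 counts in resistant replicates 1 to 3 (83.9% to 85.1%, 80.6% to 81.9% and 74.4% to 80.6% as exact 95% intervals). It made up 82.6%, 83.2% and 81.2% in sensitive replicates 1 to 3 (82.3% to 82.9%, 83.0% to 83.5% and 80.6% to 81.7%). The groups overlapped, and the resistant libraries held both the highest and the lowest share. Resistant replicate 3 rested on 732 miR-9 counts, which makes its interval the widest.

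As a ratio of counts, there were 5.46, 4.34 and 3.46 miR-9-5p counts per miR-9-3p count in resistant replicates 1 to 3, against 4.75, 4.96 and 4.31 in sensitive replicates 1 to 3. The log2 ratio averaged 2.12 ± 0.33 in resistant and 2.22 ± 0.10 in sensitive cells (SD, n = 3 each). Their difference of -0.10 was smaller than the pooled SD between libraries, 0.24, and its sign changed without resistant replicate 3, to 0.06. The ratio is taken within a library and is free of library scaling. Because adapter ligation favours some RNA ends over others, the ratio of counts is not the ratio of molecules.

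**Figure D3:**
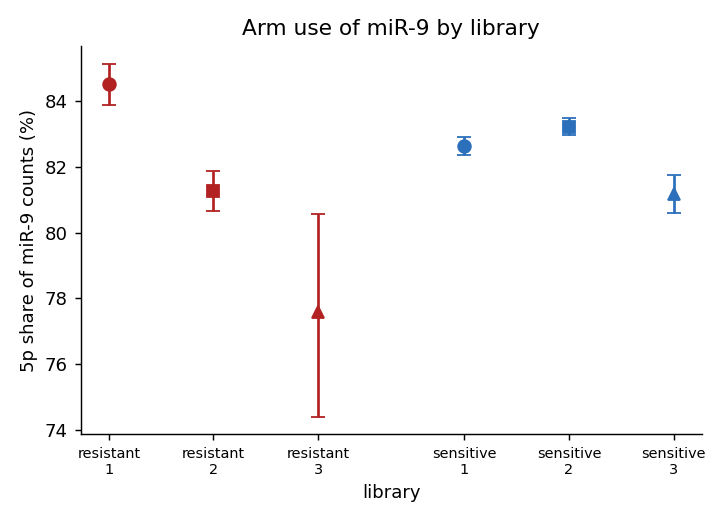
Share of miR-9-5p in all miR-9 counts (percent, axis not starting at 0) in each library, with exact 95% binomial intervals as bars. The resistant libraries spread from 77.6% to 84.5%, around the sensitive ones at 81.2% to 83.2%.

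For most other hairpins the arm ratio differed more between the forms than it did for miR-9. The same log2 ratio was computed for 187 hairpin names with both arms fitted and at least 100 counts of each in total, with 0.5 added to each count. Their absolute difference between the forms had a median of 0.67 (quartiles 0.31 and 1.14), and 10 of them differed by less than miR-9. Without resistant replicate 3 the median was 0.34, and 16 differed by less than miR-9. The arm ratios of the forms did not overlap for 46 of the 187 (24.6%), and miR-9 was not one of those. In 52 of the 187, the arms had log2 fold changes of opposite sign. Ratios from few counts vary more by counting error alone, and miR-9 had 166725 (5p) and 34794 (3p) counts in total. The part of counting error in the larger differences of other hairpins was not tested. These hairpins share the same 6 libraries, so the numbers describe them and test nothing.

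The ends of that distribution show what an unequal change looks like. miR-181a had the largest shift toward 5p, since miR-181a-3p had 0 counts in all 3 resistant libraries, against 1372, 808 and 799 counts in sensitive replicates 1 to 3. miR-181a-5p, which can also be made by another hairpin, still had 1141, 1517 and 654 counts in resistant replicates 1 to 3, against 9646, 7223 and 5721 in sensitive replicates 1 to 3. miR-202 had the largest shift toward 3p (log2 ratio difference -2.72), which rested mostly on resistant replicate 3 and was -0.53 without it. miR-202-3p had 19, 30 and 61 counts in resistant replicates 1 to 3, against 2, 0 and 0 in sensitive replicates 1 to 3. Its sensitive ratios therefore depend on the added 0.5. Apart from miR-9, 2 hairpins had both arms at or below the miR-9-3p log2 fold change of -2.64, miR-548aj and miR-548x. Both were named after their values were seen, and they belong to a family of many similar copies whose reads cannot be assigned with certainty.

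**Figure D4:**
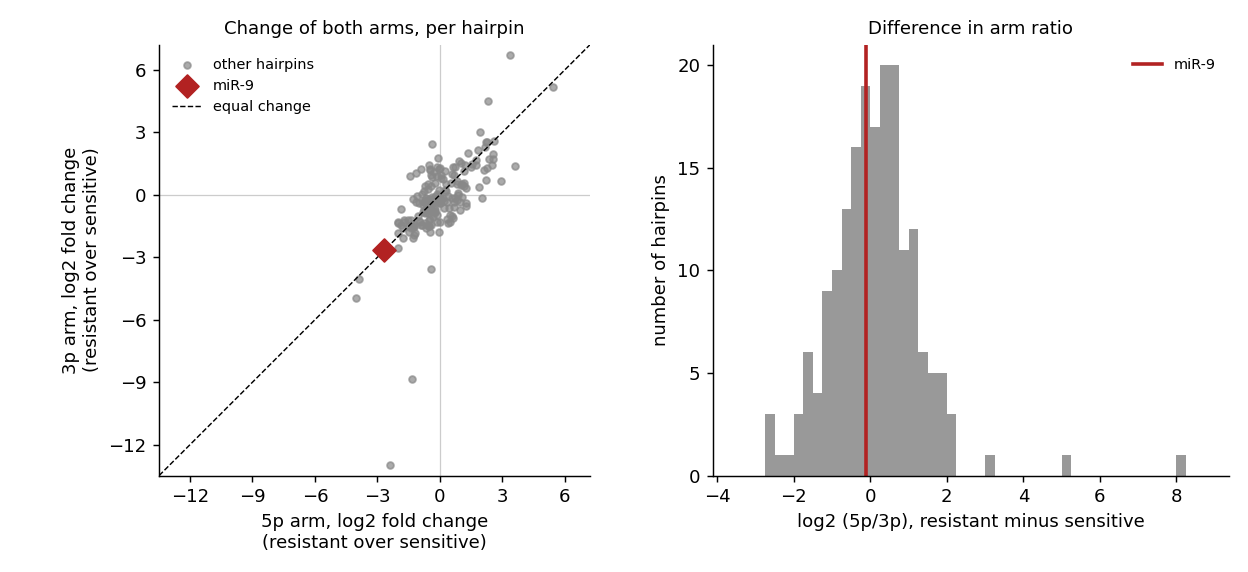
Left, log2 fold change (resistant over sensitive) of the 5p arm against that of the 3p arm for 187 hairpins, with a dashed line of equal change. Right, the number of hairpins by their difference in log2 5p/3p ratio (resistant minus sensitive, 0.5 added to counts). miR-9 lies on the line of equal change at -2.66 and -2.64, and at -0.10 in the histogram. The points far below the line include miR-181a, whose 3p arm had 0 resistant counts, so that the size of its 3p fold change is arbitrary. Its place in the histogram depends on the added count.

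The miRNA with the profile most like each miR-9 arm was the other arm. Likeness was measured as the root mean square difference between log2 CPM profiles, each centred on its own mean over the 6 libraries, among miRNAs that averaged 10 CPM or more. The arms differed by 0.21 log2 units, against 0.39 or more for each of the 467 others compared. Without resistant replicate 3 they differed by 0.13, and all others by 0.28 or more. This likeness rests on the values by which miR-9 was chosen and carries no test.

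Next to miR-9-5p came miR-154-3p, miR-379-3p, miR-376b-3p and miR-21-5p, at 0.40 to 0.50 log2 units. Next to miR-9-3p came miR-379-3p, miR-154-3p, miR-3144-3p and miR-411-3p, at 0.39 to 0.54. The miRNAs miR-154, miR-379, miR-376b and miR-411 are made on chromosome 14, where miR-9 has no hairpin. miR-379-3p had 734, 805 and 190.1 CPM in resistant replicates 1 to 3, against 1986, 2622 and 1479 CPM in sensitive replicates 1 to 3. As for miR-9, its groups did not overlap and replicate 3 was the lowest of each, but its log2 fold change was smaller, at -1.82 (SE 0.59), and did not pass (edgeR adjusted p = 0.134). It fell when resistant replicate 3 was left out (log2 fold change -1.34, edgeR adjusted p = 0.00206), where 14.4% of all miRNAs were called lower. Because miR-379-3p was named for its likeness to miR-9 in these libraries, no support is drawn from its p-values.

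The neighbours depended on resistant replicate 3. Without it, miR-139-5p and miR-221-3p, a repressor of KIT, became the nearest to both arms after the arms themselves, at 0.28 to 0.32 log2 units. miR-139-5p had 31.0, 30.9 and 34.2 CPM in resistant replicates 1 to 3, against 158, 131 and 59.2 CPM in sensitive replicates 1 to 3. Its resistant libraries were close together, and sensitive replicate 3 was the lowest of its group, as for miR-9. With a GC content of 52.2%, miR-139-5p was not low in resistant replicate 3. Of the 5 nearest, 2 were shared between the 6-library and 5-library comparisons for miR-9-5p and 3 for miR-9-3p, the other arm included.

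**Figure D5:**
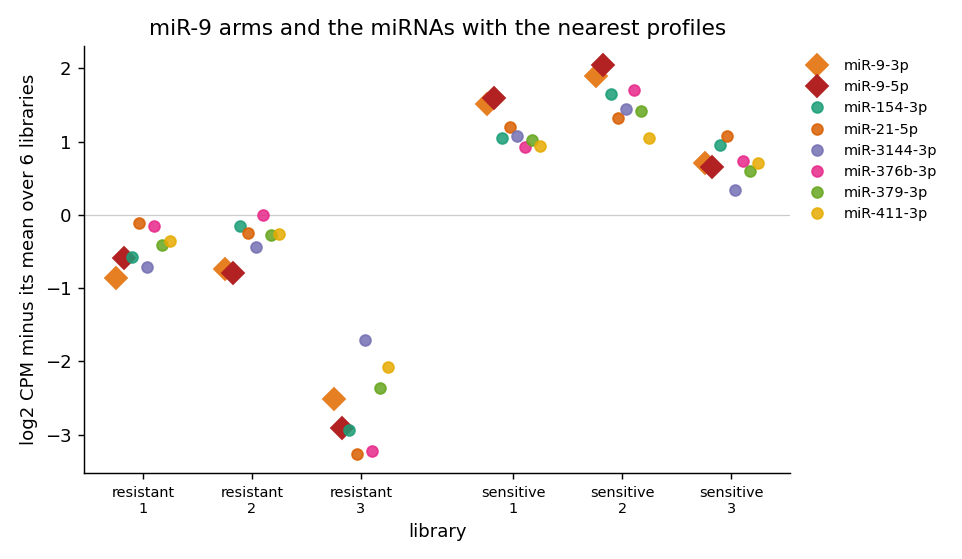
log2 CPM minus its mean over the 6 libraries, for both miR-9 arms (diamonds) and the 6 other miRNAs among the 5 nearest of either arm (circles), in each library. Both miR-9 arms lie close together in every library, and all 8 miRNAs are lowest in resistant replicate 3.

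Of 25 listed miRNAs of neural tissue 13 were tested, and 0 passed in edgeR with all 6 libraries (4.17% of all miRNAs did), with an unadjusted p under 0.05 for 2, DESeq2 calls for 2 and limma-voom calls for 0. Their median log2 fold change was -0.40, against -0.11 over all tested. miR-128-3p, the most abundant of them and a brain miRNA also made in blood cells, had 5182, 5095 and 4515.9 CPM in resistant replicates 1 to 3, against 5273, 4324 and 5716 CPM in sensitive replicates 1 to 3. Its groups overlapped (log2 fold change -0.05, SE 0.35, edgeR adjusted p = 0.930). Of the 13, 2 fell and 0 rose when resistant replicate 3 was left out, where 14.4% of all miRNAs were called lower. They were miR-129-5p and miR-383-5p, named after their values were seen (log2 fold changes -1.59 and -2.69, edgeR adjusted p = 0.0244 and 0.00206). With all 6 libraries they were at -0.19 and -2.47 (edgeR adjusted p = 0.886 and 0.0539). For miR-129-5p, resistant replicate 3 had the highest level of all 6 libraries, at 72.7 CPM, and the groups overlapped.

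The listed neural miRNAs differed widely in level. miR-124-3p, a defining miRNA of neurons, had 2, 1 and 0 counts in resistant replicates 1 to 3, against 0 in each sensitive library, and miR-137-3p had 0 in all 6. Summed over the neural list, the level in CPM without TMM factors was 4235 to 10753 in resistant and 7253 to 10985 in sensitive cells, mostly from miR-128-3p and miR-7-5p. Of the 25 listed, 5 had 0 counts in every library.

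miRNAs described as silenced by promoter methylation in cancers, as the miR-9 genes have been, had 1 edgeR call with all 6 libraries. Of 34 listed members other than miR-9, 21 were tested, and DESeq2 called 2 higher and 2 lower and limma-voom 1 higher and 0 lower. Over all 768 miRNAs, DESeq2 called 98 higher and 51 lower and limma-voom 21 higher and 19 lower. miR-200c-3p, which keeps epithelial cells epithelial by repressing ZEB1 and ZEB2, rose in edgeR and 0 fell, at 4.17% called over all miRNAs. It had 321, 294 and 438 CPM in resistant replicates 1 to 3, against 102, 93.1 and 79.6 CPM in sensitive replicates 1 to 3 (log2 fold change 1.94, SE 0.38, edgeR adjusted p = 0.0355). The call was lost when resistant replicate 1 or any 1 of the sensitive libraries was left out. The most abundant, miR-126-3p of endothelial and blood stem cells, had 18633 ± 8478 CPM in resistant and 42925 ± 7908 CPM in sensitive cells (SD, n = 3 each) and did not pass (log2 fold change -1.20, SE 0.48, edgeR adjusted p = 0.166). With resistant replicate 3 left out miR-126-3p fell (log2 fold change -0.82, edgeR adjusted p = 0.00883). The list's median log2 fold change was -0.35, against -0.11 over all tested. Without resistant replicate 3, 4 of 22 rose and 3 fell, at 28.1% called over all miRNAs (median -0.05, against 0.04).

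Lineage miRNAs of blood were measured as a check on the cells. All 5 listed erythroid miRNAs and 5 of 6 myeloid ones were tested, and 0 of each passed in edgeR, with an unadjusted p under 0.05 for 2 and 1, DESeq2 calls for 2 and 0, and limma-voom calls for 0 and 0. Over all 768 miRNAs edgeR called 4.17% and DESeq2 149. When resistant replicate 3 was left out, 2 erythroid miRNAs, both arms of miR-486, rose and 2 myeloid ones fell in edgeR, at 28.1% called over all miRNAs. The myeloid ones were miR-223-3p and miR-146a-5p (log2 fold changes -0.99 and -0.82, edgeR adjusted p = 0.00733 and 0.0152). With all 6 libraries these 2 were at -1.52 and -1.21 and did not pass. The median log2 fold change with all 6 libraries was -0.77 for the myeloid list and -0.002 for the erythroid list, against -0.11 over all tested. The erythroid miR-451a, miR-144-3p and miR-144-5p had log2 fold changes of -0.94, -0.41 and -0.002 with all 6 libraries. Without resistant replicate 3 they were at -0.49, 0.09 and 0.43, and they did not pass in either fit. miR-451a, the red-cell miRNA, was present at 196, 177 and 51.5 CPM in resistant replicates 1 to 3, against 279.7, 343 and 192 CPM in sensitive replicates 1 to 3. miR-486-5p, the most abundant of the erythroid list, had 13140, 9582 and 63305 CPM in resistant replicates 1 to 3, against 6215, 6077 and 4744 CPM in sensitive replicates 1 to 3 (log2 fold change 2.34, edgeR adjusted p = 0.130). It rose without resistant replicate 3 (log2 fold change 1.05, edgeR adjusted p = 0.00218). miR-142-3p, the most abundant of the myeloid list, had 5578, 7041 and 615 CPM in resistant replicates 1 to 3, against 7168, 7474 and 7558 CPM in sensitive replicates 1 to 3 (log2 fold change -0.75, edgeR adjusted p = 0.543), with a log2 fold change of -0.17 without resistant replicate 3 (edgeR adjusted p = 0.546). Summed in CPM without TMM factors, the erythroid list reached 13487 to 50444 in resistant and 5278 to 7071 in sensitive cells, mostly from miR-486-5p. The myeloid list reached 1168 to 13632 in resistant and 11724 to 13087 in sensitive cells. The part of these differences, and of the fragment-like annotations, in the level of miR-9 was not tested.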

How the data were processed

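The authors deposited whole-number read counts per mature miRNA, 1 column per library, without normalization as far as the values show. Per the submitters' processing notes, GRCh38 was the build. Which aligner, counting program and miRBase release were used is not given in the sources used here. TriPure RNA was treated with DNase, per the labels' protocols, and made into libraries with a NEBNext small RNA kit, whose adapter ligation favours some RNA ends.

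Counts were analysed in R 4.3.3 with edgeR 4.0.16 (filterByExpr with minimum count 10 and total 15, TMM factors, quasi-likelihood F test on group, Benjamini-Hochberg adjustment over all tested miRNAs, threshold 0.05). Approximate SEs come from the fold change and F (size of the log2 fold change over the root of F). DESeq2 1.42.0 and limma 3.58.1 (voom) were alternatives, as were other scalings and filters, a replicate block, a loess correction for GC content and leaving out each library. The fits were tested on simulated data. Replicates of a group differed by more than sampling noise (chi-square per degree of freedom 124 to 4015), so none is a repeated deposit.

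miR-9 and the lists were chosen with earlier results of these data known. Named besides it were the most abundant tested member and up to 3 called members of each list, the 5 nearest profiles per arm, miRNAs that share a seed, and the hairpins with the largest shifts in arm ratio. Of the 18 fragment-like annotations, 9 were tested and 0 passed in edgeR, where 4.17% of all miRNAs did. An unadjusted p under 0.05 was seen for 4, with 1 call each in DESeq2 and limma-voom. Over all 768 miRNAs these numbers were 205, 149 and 40. The most abundant of the 9 was miR-1260b, with a log2 fold change of 1.19 (edgeR adjusted p = 0.398). Without resistant replicate 3, 3 of the 9 fell, where 14.4% of all miRNAs were called lower. Among the 3 were miR-1260b, at -0.66 (edgeR adjusted p = 0.0189), and miR-1260a, which had nearly the same values. The other was miR-4485-3p, which fell most, at -3.97 (edgeR adjusted p = 5.99e-06). With all 6 libraries it was at -2.57 (edgeR adjusted p = 0.130).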

Additional observations from a re-analysis of the deposited data

How the results depend on the processing

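Both miR-9 arms had lower levels in resistant cells under all 15 alternatives, with log2 fold changes of -2.94 to -1.89 for miR-9-5p and -2.86 to -1.71 for miR-9-3p. Leaving out 1 library at a time gave -2.94 to -2.17 and -2.86 to -2.20. The value nearest to 0 for miR-9-3p, -1.71, came with the GC correction and was the one that moved by more than the spread between replicates. Neither arm was called in 8 alternatives, both in 6 and miR-9-3p alone in 1, limma-voom (40 of 768 miRNAs called). Both were called with DESeq2 (149 of 768), the GC correction (70 of 768), the replicate block (23 of 768) and no filter (162 of 1734). The rest of the 6 were the fits without resistant replicate 3, with the GC correction (224 of 822) and without it (231 of 822). No support is drawn from these calls. The arm ratio difference stayed within -0.27 to 0.06 when 1 library was left out. With a pseudocount of 1 or with counts summed over a group it moved by less than the spread between libraries.

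Calls over all miRNAs, 32 in the 6 libraries, numbered 21 with RLE factors, 14 with a minimum mean of 10 CPM, 70 with the GC correction, 149 with DESeq2 and 162 without a filter. They numbered 4 to 231 with 1 library left out (231 without resistant replicate 3, 7 without resistant replicate 1, 26 without resistant replicate 2, and 5, 4 and 5 without sensitive replicates 1, 2 and 3), and 224 with the GC correction without resistant replicate 3, a combination chosen after seeing the data. Neural calls numbered 1 with library totals and with the GC correction, 2 with DESeq2, without a filter and with that combination, and 0 to 2 with 1 library left out. Methylation-silenced calls numbered 2 with library totals and without a filter, 4 with DESeq2 and with the GC correction, 9 with that combination, and 0 to 7 with 1 library left out. The causes were not tested.

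The labels share replicate numbers across the forms but do not say that a number marks a shared batch. Deviations of same-numbered libraries from their group means correlated at -0.07, 0.27 and 0.14. Resistant replicate 1 correlated best with sensitive replicate 2 (0.22), whereas resistant replicates 2 and 3 correlated best with the sensitive libraries of their own number. This check does not settle the pairing, so fits without and with a replicate block are given. With the replicate block, calls numbered 23 of 768 miRNAs, both miR-9 arms among them. The log2 fold changes were -2.86 (SE 0.52) for miR-9-5p and -2.75 (SE 0.48) for miR-9-3p. The neural and methylation-silenced lists had 0 and 1 calls, that one being miR-193a-5p in place of miR-200c-3p, and the arm ratio difference was -0.10.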
